A study of Mus musculus with 2 samples.

Results

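Sperm and the germ cells that form them burn sugar with a partly separate set of enzymes. For 5 steps of glycolysis, a gene used in germ cells is listed here beside one used generally. The 10 genes of these 5 pairs, chosen as listed pairs and found by symbol in both count matrices, are described here out of 39232 genes in all. In the order of the pathway the pairs are Aldoart1 and Aldoa (aldolase), Gapdhs and Gapdh (glyceraldehyde-phosphate dehydrogenase), Pgk2 and Pgk1 (phosphoglycerate kinase), Pgam2 and Pgam1 (phosphoglycerate mutase), and Ldhc and Ldha (lactate dehydrogenase, which turns pyruvate into lactate and back). Each pair is named with its germ cell gene ahead of its general gene.

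As background, glycolysis in the sperm tail supplies ATP close to the motor proteins, and several of its enzymes are tied to the fibrous sheath, among them GAPDHS. Pgk2 is an autosomal copy of the X-linked Pgk1 that arose by reverse transcription, and the X chromosome is silenced in meiosis; Aldoart1 is likewise a retrocopy of the aldolase A gene. LDHC is the testis form of lactate dehydrogenase, while PGAM2 is best known as the muscle form of its enzyme and is also made in the testis. Sertoli cells, the somatic nurse cells of the tubule, take up glucose and pass lactate to the germ cells.

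The transcripts of single cells in the testis of male C57 BL/6 mice were counted by droplet sequencing, after tissue digestion and with no step named that selects a cell type, although the labels give the cells as germ cells. The high-fat library comes from mice 5 weeks old at the start that had 1 week of adaptation and then 12 weeks of feed that gave 60% of its calories as fat. The label of the other library names only testicular tissue and no diet, and it is called the other library hereafter; the study's second arm stayed on normal feed for the same 12 weeks. Each arm had 10 of the 20 mice, but the labels do not say how many mice a library holds. Each group is 1 library, which leaves nothing to test against, so "higher" and "lower" between libraries compare these 2 libraries and not the diets. Intervals in parentheses are 95% intervals that cover counting error only.

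The annotation places the members on 6 autosomes and the X chromosome. In GENCODE M21, whose gene IDs match most of those in the files, Pgk2 (ENSMUSG00000031233.6, chromosome 17) has 1 exon and Pgk1 (ENSMUSG00000062070.12, chromosome X) up to 11 exons. Aldoart1 (ENSMUSG00000059343.4, chromosome 4) has 1 exon and Aldoa (ENSMUSG00000114515.2, chromosome 7) up to 10. Ldhc (ENSMUSG00000030851.15) and Ldha (ENSMUSG00000063229.15) lie next to each other on chromosome 7, on the same strand with 0 protein-coding genes between them. Gapdhs (ENSMUSG00000061099.12) is also on chromosome 7, Gapdh (ENSMUSG00000057666.18) on chromosome 6, Pgam2 (ENSMUSG00000020475.3) on chromosome 11 and Pgam1 (ENSMUSG00000011752.7) on chromosome 19.

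The promoters of the neighbours Ldhc and Ldha and of the retrocopy Pgk2 and its X-linked source Pgk1 are shown because the Ldhc pair had a like course over the stages and the Pgk2 pair did not. They are RefSeq sequences of build GRCm38.p6, from 250 bases before the gene's start to 50 after it, 5′ to 3′ on the gene's strand; 9 of the 10 members had an entry (Aldoart1 is named only), and for Ldhc and Ldha, with 2 entries each, the upstream one is given. Capitals mark, on either strand, TGACG (part of the cAMP response element), CCAAT (the box of that name), TATAAA (the TATA box) and GGGCGG (the GC box).
Ldhc (chr7:46861013-46861312, plus strand): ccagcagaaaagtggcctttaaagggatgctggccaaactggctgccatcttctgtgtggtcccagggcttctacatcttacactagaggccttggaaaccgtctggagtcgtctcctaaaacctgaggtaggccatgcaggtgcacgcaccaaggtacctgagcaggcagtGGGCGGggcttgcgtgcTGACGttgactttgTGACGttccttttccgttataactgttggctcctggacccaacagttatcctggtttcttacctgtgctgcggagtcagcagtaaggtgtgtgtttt
Ldha (chr7:46845554-46845853, plus strand): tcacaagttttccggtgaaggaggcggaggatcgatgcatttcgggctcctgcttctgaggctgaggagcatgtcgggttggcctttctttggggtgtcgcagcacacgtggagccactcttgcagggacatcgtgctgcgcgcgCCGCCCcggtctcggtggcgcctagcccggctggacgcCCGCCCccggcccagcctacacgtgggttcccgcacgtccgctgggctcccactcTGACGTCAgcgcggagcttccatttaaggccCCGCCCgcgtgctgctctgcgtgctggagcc
Pgk2 (chr17:40208560-40208859, minus strand): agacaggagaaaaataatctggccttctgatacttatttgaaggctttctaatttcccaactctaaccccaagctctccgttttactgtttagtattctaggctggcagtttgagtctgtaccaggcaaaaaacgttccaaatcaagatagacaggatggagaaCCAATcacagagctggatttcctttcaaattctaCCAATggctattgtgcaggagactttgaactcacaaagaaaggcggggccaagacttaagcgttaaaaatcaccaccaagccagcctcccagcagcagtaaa
Pgk1 (chrX:106186850-106187149, plus strand): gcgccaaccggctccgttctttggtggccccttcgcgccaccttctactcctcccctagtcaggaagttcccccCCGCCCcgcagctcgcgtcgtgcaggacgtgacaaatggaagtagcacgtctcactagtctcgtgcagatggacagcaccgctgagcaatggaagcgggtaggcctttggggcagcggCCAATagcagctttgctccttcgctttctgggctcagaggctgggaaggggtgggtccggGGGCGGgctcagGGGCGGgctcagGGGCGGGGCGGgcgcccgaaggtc
The Ldhc window holds 2 TGACG runs and 1 GGGCGG, and 53.3% of its bases are G or C. The Ldha window holds the full TGACGTCA, which counts as a TGACG on each strand, and 3 GGGCGG, with 67.3% G or C. These contents depend on the entry chosen. The second Ldhc entry holds 0 TGACG and 0 GGGCGG, and the second Ldha entry 1 TGACG, 0 TGACGTCA and 0 GGGCGG. The Pgk2 window holds 2 CCAAT and no GGGCGG, with 43.0% G or C, whereas the Pgk1 window holds 1 CCAAT and 5 GGGCGG, of which 2 overlap, with 66.7% G or C. Among the 32851 promoters of the same length, 20.8% hold TGACG, 1.79% TGACGTCA, 37.4% CCAAT, 13.6% TATAAA and 35.7% GGGCGG, and the median G and C content is 52.7%. TATAAA is in none of the 4 windows. A match describes the letters and is not a binding site.

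The high-fat library held 201842085 UMIs (unique molecular identifiers, each a counted mRNA molecule) in 12661 barcodes and the other library 207667609 UMIs in 13805 barcodes. After filters and doublet calls, 12196 and 13286 cells fell into 8 germ cell classes and 5 somatic classes, while 4 of the 23 clusters, with 1698 and 1224 cells, stayed without a name. Class names stand for "like" by markers, as in Sertoli-like. The matching marker list was highest in the class of that name except for 1 spermatogonial list and the round spermatids. The list of differentiating spermatogonia stood at 2407 and 2233 CPM near the meiotic divisions, above 1810 and 1623 CPM in spermatogonia, which were named from it by the fold of its genes and whose leading genes include Lin28a and Sohlh1. The list of undifferentiated spermatogonia was highest in spermatogonia, at 285 and 266 CPM. The early round list stood at 1473 and 1294 CPM in middle round spermatids, above 1288 and 959 CPM in early round spermatids. The late round list was highest in elongating spermatids, at 13028 and 11674 CPM, and in the other library the middle round list was at 7049 CPM in late round and 6666 CPM in middle round spermatids. CPM is the count of a gene scaled to 1000000 UMIs of the class. Levels are compared mainly between classes and libraries. Where genes are set side by side, as in a pair's share, their UMI counts are taken as they stand, not divided by transcript length. Such a comparison holds for UMIs only. Depth differed widely, with medians of 14182 to 21464 UMIs per cell in pachytene spermatocytes to late round spermatids and of 1352 to 4411 in all other named classes. The libraries share 1507 barcode names, but these names are running labels and not sequences, so they do not show shared cells.

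Among kept cells, Ldhc had more UMIs than any other gene in both libraries, with 1833021 UMIs in the high-fat library and 2084801 in the other library, or 0.956% and 1.06% of all UMIs. The germ cell gene held most of the pair's UMIs for 4 of the 5 steps, in both libraries. The exception was aldolase, where Aldoa stood at 145 and 157 CPM against 57.4 and 53.7 CPM for Aldoart1.

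**Figure D1:**
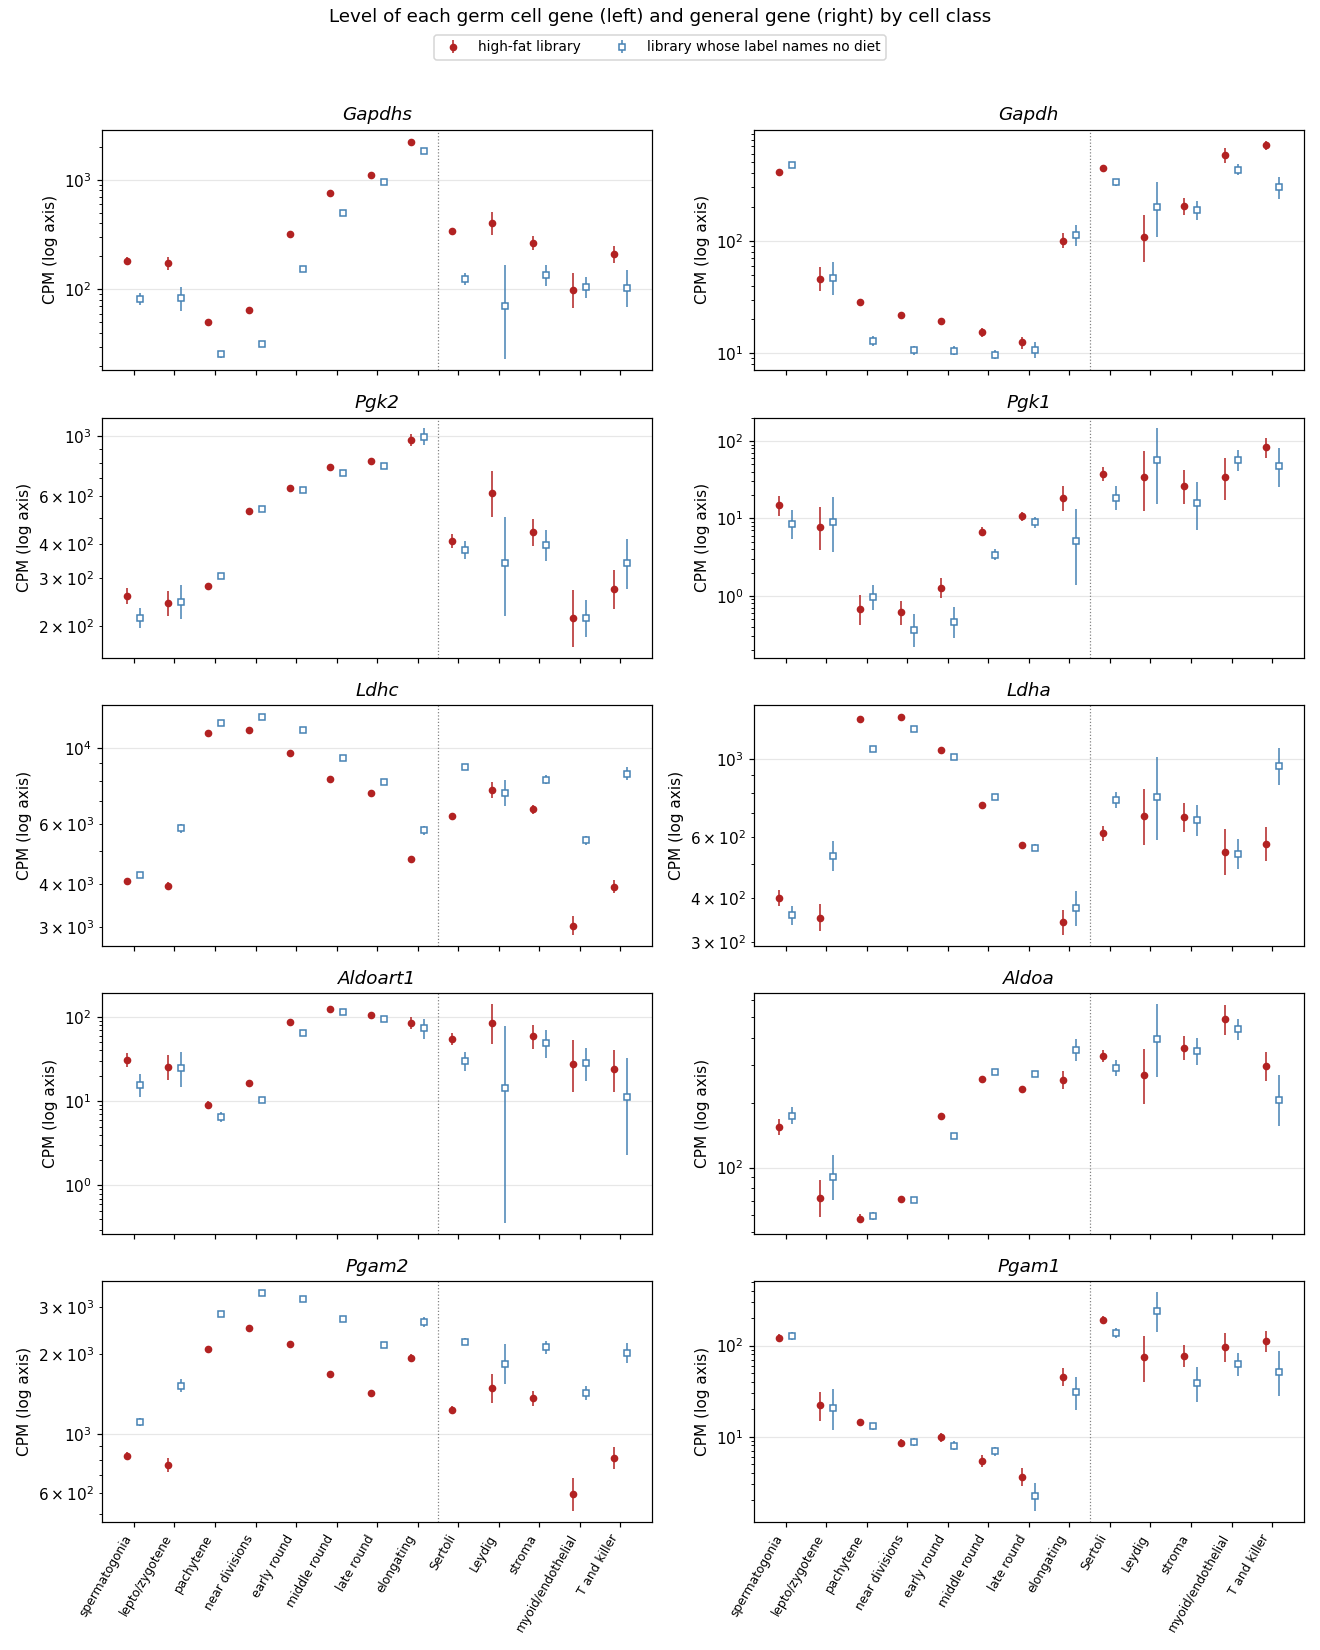
CPM (log axis, its range set per panel) of each germ cell gene (left column) and its general partner (right column) in 8 germ cell classes in stage order and, right of the dotted line, 5 somatic classes. Filled circles are the high-fat library and open squares the other library, with exact Poisson 95% intervals; Gapdhs reaches 2205 and 1845 CPM in elongating spermatids, and Pgk1 is lowest from pachytene spermatocytes to early round spermatids.

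Aldolase, which splits the sugar into 2 trioses, had both genes of its pair highest after meiosis. Over the 8 germ cell classes in stage order (spermatogonia, leptotene and zygotene spermatocytes, pachytene spermatocytes, spermatocytes near the meiotic divisions, then early round, middle round, late round and elongating spermatids) Aldoart1 stood at 31.0, 25.6, 9.04, 16.2, 85.8, 123, 105 and 85.4 CPM in the high-fat library. In the other library the series was 15.7, 24.6, 6.57, 10.3, 63.5, 114, 95.7 and 72.8 CPM. Both libraries therefore had the minimum at pachytene and the maximum in middle round spermatids, and late round spermatids were 11.6 (10.3 to 13.2) and 14.6 (12.6 to 16.9) times the pachytene level. Aldoa was also lowest at pachytene, at 155, 72.4, 57.9, 71.1, 174, 257, 232 and 255 CPM in the high-fat library. Its series in the other library was 174, 90.6, 59.6, 70.9, 141, 277, 272 and 353 CPM. Late round spermatids had 4.0 (3.79 to 4.22) and 4.57 (4.32 to 4.82) times the Aldoa of pachytene spermatocytes. In elongating against late round spermatids Aldoart1 was lower in both libraries and Aldoa higher, with intervals of Aldoa that overlapped in the high-fat library. Elongating spermatids also had more of the Sertoli markers, as given below, and Sertoli cells had Aldoa at 330 and 291 CPM. The part of Sertoli transcripts in this Aldoa difference was not tested. In early round spermatids, 72.4% of cells in the high-fat library and 53.4% in the other library held UMIs of both aldolase genes. The longest run of bases shared by the 2 transcripts is 86, against 20 to 28 in the other pairs, and how the authors counted reads that match several genes is not given in the sources used here. M21 gives the symbol Aldoa to 2 gene IDs, of which the files hold 1, so the Aldoa level may lack reads.

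Glyceraldehyde-phosphate dehydrogenase, which makes the first NADH of the pathway, showed the sharpest exchange of one gene for the other. Gapdhs stood at 182, 173, 50.4, 64.5, 320, 750, 1116 and 2205 CPM in the high-fat library, in the same stage order. In the other library it stood at 81.8, 82.8, 25.6, 32.0, 152, 493, 963 and 1845 CPM. From pachytene onward every step was upward in both libraries, and elongating spermatids had 43.8 (41.3 to 46.4) and 72.0 (66.1 to 78.6) times the pachytene level. Gapdh went the other way, at 410, 46.1, 28.7, 21.8, 19.1, 15.4, 12.4 and 100 CPM in the high-fat library. Its levels in the other library were 470, 46.6, 12.8, 10.6, 10.5, 9.68, 10.7 and 112 CPM. Spermatogonia were 8.88-fold and 10.1-fold above leptotene and zygotene spermatocytes, and 33.0-fold and 44.0-fold above late round spermatids. Among all 10 members, Gapdh is the one whose last 500 bases share stretches of 100 bases with other genes (14.5% of such stretches, with 4 genes, 2 of them pseudogenes), so a small part of its counts may belong elsewhere.

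The higher Gapdh in elongating spermatids came together with markers of another cell type. The list of 20 Sertoli markers summed to 3622 and 2871 CPM there, with 20 and 19 of the 20 detected (Fshr, the receptor for follicle-stimulating hormone, was at 0 in the other library). In late round spermatids the same list summed to 72.8 and 75.7 CPM. Pgam1, too, was higher in elongating than in late round spermatids, at 45.1 against 3.64 CPM in the high-fat library and 30.7 against 2.23 CPM in the other library. The part of Sertoli transcripts in these 2 general genes, and in the higher Aldoa of elongating spermatids, was not tested.

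Phosphoglycerate kinase, which makes the first ATP, had a general gene with few UMIs in spermatocytes. Pgk2 stood at 257, 242, 280, 528, 646, 771, 814 and 967 CPM in the high-fat library, and each class from pachytene on was above the one before it. The other library gave 214, 246, 305, 540, 632, 732, 780 and 997 CPM, also upward at each step. From pachytene on, the largest step was that from pachytene spermatocytes to spermatocytes near the meiotic divisions, 1.89-fold (1.84 to 1.93) and 1.77-fold (1.73 to 1.81). X-linked Pgk1 stood at 14.8, 7.81, 0.679, 0.613, 1.27, 6.75, 10.6 and 18.4 CPM in the high-fat library. In the other library it stood at 8.59, 9.06, 0.969, 0.368, 0.464, 3.42, 8.91 and 5.11 CPM. Its trough covered pachytene to early round spermatids, with 22, 35 and 46 UMIs in the high-fat library and 31, 18 and 20 UMIs in the other library out of at least 31977904 UMIs per class. It was higher again later, with middle round spermatids at 5.31 (3.84 to 7.49) and 7.36 (4.61 to 12.4) times the early round level. The elongating value of the other library rests on 4 UMIs.

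Phosphoglycerate mutase, which moves the phosphate group within the 3-carbon acid, had a general gene that changed more over the stages than its germ cell gene. Pgam2 stood at 828, 765, 2081, 2508, 2190, 1689, 1429 and 1928 CPM in the high-fat library. The other library had 1109, 1522, 2832, 3399, 3209, 2707, 2162 and 2649 CPM. The peak fell near the meiotic divisions in both libraries, and elongating spermatids stood above late round spermatids. Pgam1 behaved like Gapdh, at 121, 22.0, 14.3, 8.53, 9.83, 5.46, 3.64 and 45.1 CPM in the high-fat library. In the other library it was at 128, 20.7, 12.9, 8.77, 7.99, 6.90, 2.23 and 30.7 CPM. Spermatogonia had 33.2-fold and 57.3-fold the Pgam1 of late round spermatids.

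Lactate dehydrogenase had both genes of its pair highest in spermatocytes near the meiotic divisions. Ldhc stood at 4084, 3954, 11029, 11258, 9637, 8089, 7390 and 4726 CPM in the high-fat library. The other library had 4248, 5824, 11789, 12322, 11262, 9313, 7955 and 5746 CPM. It was highest in spermatocytes and lower in each later class, to 0.429 (0.419 to 0.438) and 0.487 (0.473 to 0.502) of the pachytene level in elongating spermatids. Ldha stood at 401, 353, 1304, 1314, 1063, 741, 570 and 342 CPM in the high-fat library. Its values in the other library were 358, 528, 1066, 1216, 1015, 781, 559 and 374 CPM. The decline of the general gene was steeper, to 0.262 (0.241 to 0.284) and 0.351 (0.312 to 0.394) of the pachytene level. Every cell of pachytene to elongating class had at least 1 Ldhc UMI in both libraries, with a median of 232 and 155.5 UMIs per pachytene cell.

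As a share of the pair's UMIs, Gapdhs made up 30.7% (28.7 to 32.8) in spermatogonia of the high-fat library and 14.8% (13.1 to 16.7) in the other library. In early round spermatids these shares were 94.4% (93.9 to 94.8) and 93.6% (93.0 to 94.1), and in late round spermatids 98.9% in both. Pgk2 held 94.6% to 99.9% of its pair over the germ cell classes of both libraries, and Pgam2 87.2% to 99.9%. Ldhc held 89.4% to 93.9%, a narrow band with no step. Aldoart1 never reached an even share: it was 13.5% (12.1 to 15.0) and 9.92% (8.68 to 11.3) in pachytene spermatocytes and 33.0% (32.1 to 34.0) and 31.1% (30.1 to 32.1) in early round spermatids. The germ cell gene's share was larger in early round spermatids than in spermatogonia for 4 of the 5 pairs in both libraries, Ldhc being the exception. Sertoli cells had shares of 91.6% and 95.3% for Pgk2, 86.5% and 94.2% for Pgam2 and 91.1% and 92.0% for Ldhc. Their Gapdhs share, 43.1% and 27.3%, was above that of spermatogonia. Shares like those of spermatogonia were thus also seen in somatic cells.

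**Figure D2:**
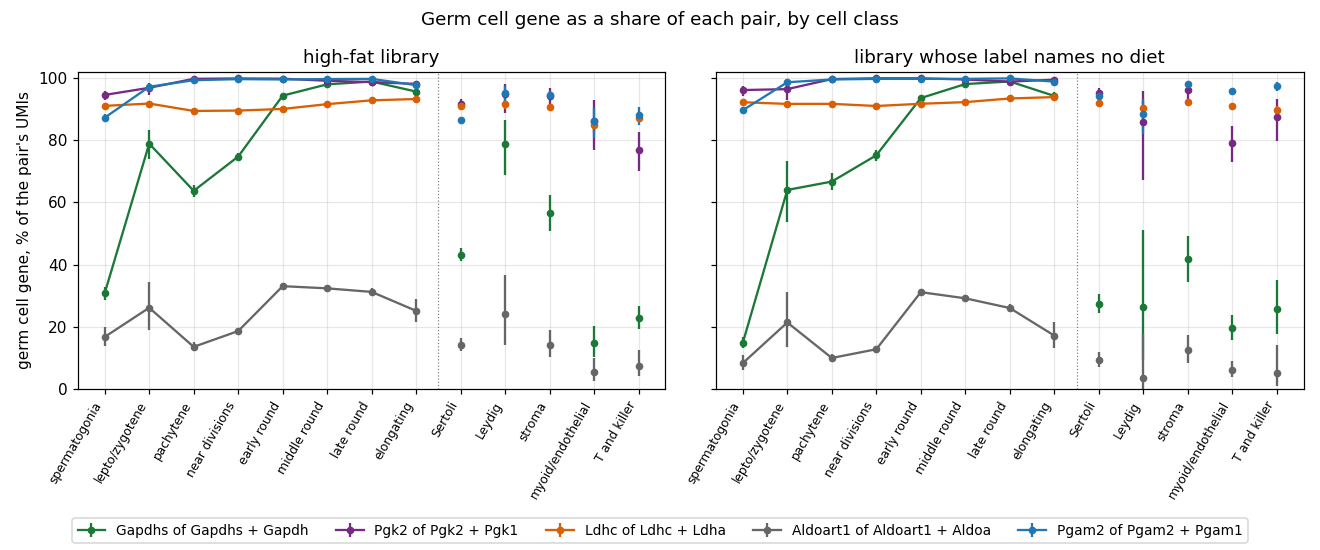
UMIs of the germ cell gene as a percentage of its pair's UMIs by class, in the high-fat library (left) and the other library (right), with exact Clopper-Pearson 95% intervals; lines join the 8 germ cell classes in stage order. The Gapdhs share climbs to 98.9% in late round spermatids of both libraries, the Ldhc share stays between 89.4% and 93.9% over the germ cell classes, and the Aldoart1 share peaks at 33.0% and 31.1%.

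Levels of the germ cell genes in the shallow classes have to be read against RNA that is shared between droplets. Spermatogonia, leptotene and zygotene spermatocytes and the 5 somatic classes all held Ldhc at a median of 9 to 12 UMIs per cell in the high-fat library and 8 to 10 in the other library. In the same classes there were 4.82 to 5.17 Ldhc UMIs for each Pgam2 UMI in the high-fat library and 3.77 to 4.17 in the other library, close to the whole-library ratios of 4.72 and 3.65. Ldhc per Pgk2 UMI was 12.2 to 16.3 and 19.8 to 25.1 in these classes, whereas it ran from 4.89 to 39.4 and from 5.77 to 38.7 over pachytene spermatocytes to elongating spermatids. The whole-library ratios of Ldhc to Pgk2 were 16.8 and 18.4, so that all 7 classes lay below the ratio of the high-fat library and all 7 above that of the other library, where Sertoli cells had 23.0 (21.3 to 24.8). Ldhc per Pgam2 was 4.40 to 5.30 and 3.44 to 4.16 from pachytene to late round spermatids, close to that of the shallow classes, and 2.45 and 2.17 in elongating spermatids. A level of free RNA set from 10 late spermatid transcripts (named below) and subtracted from the somatic classes left Ldhc at 0 CPM in lymphocytes of the high-fat library but at 7670 of 8411 CPM in those of the other library. In stromal cells it left 1842 of 6609 CPM in the high-fat library and 6186 of 8076 CPM in the other library, and in Sertoli cells of the other library 5473 of 8762 CPM. The part of free RNA in Ldhc, Pgam2 and Pgk2 of these 7 classes therefore differs with the measure used and is not known.

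**Figure D3:**
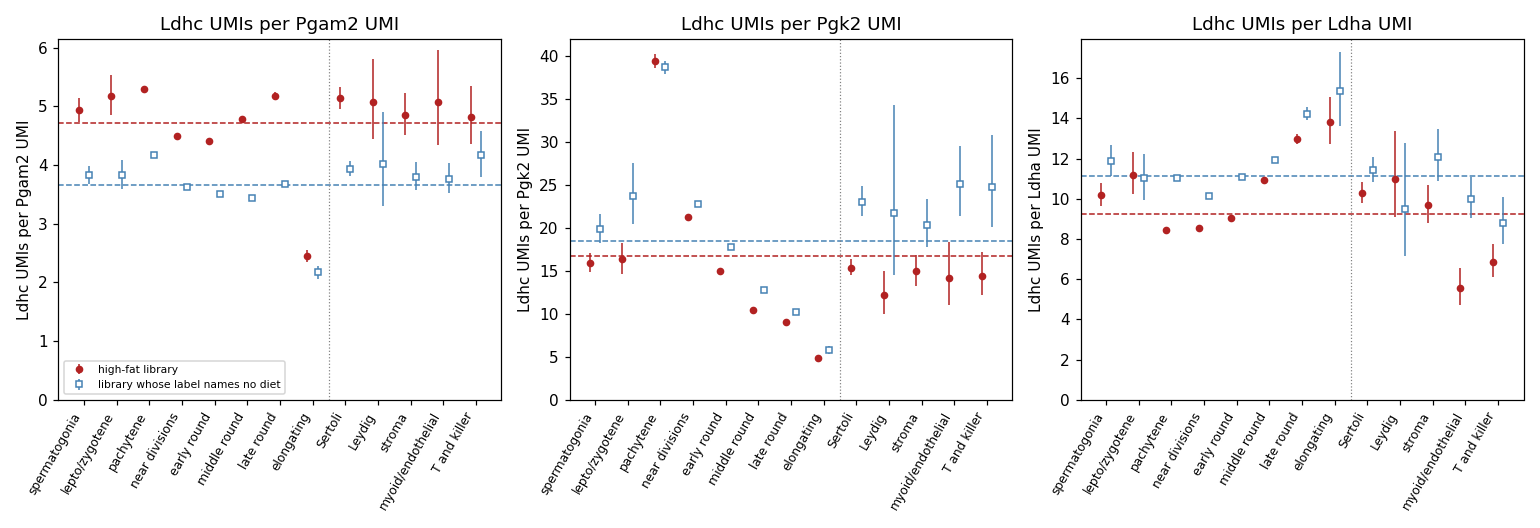
Ldhc UMIs per UMI of Pgam2, Pgk2 and Ldha by class (linear axes from 0), with 95% intervals from the exact binomial; filled circles are the high-fat library, open squares the other library, and dashed lines the whole-library ratios. Left of the dotted line are germ cell classes, right of it somatic classes, where Ldhc per Pgam2 stays at 4.82 to 5.17 in the high-fat library and 3.77 to 4.17 in the other library.

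Gapdhs can be set against 10 transcripts of late spermatids (Prm1, Prm2, Tnp1, Tnp2, Odf1, Smcp, Oaz3, Hmgb4, Tssk6 and Spem1), which earlier cells should lack. In spermatogonia these summed to 42.9% of their whole-library level in the high-fat library and 30.9% in the other library, and Gapdhs stood at 49.6% and 32.6% of its own. In pachytene spermatocytes the 10 transcripts were at 11.3% and 8.78%, and Gapdhs at 13.7% and 10.2%. In spermatocytes near the meiotic divisions they were at 12.3% and 9.09%, and Gapdhs at 17.6% and 12.7%. Early round spermatids were the earliest class where Gapdhs stood clearly apart, at 87.3% and 60.6% of its whole-library level against 35.7% and 29.3% for the 10 transcripts. The part of shared RNA in the Gapdhs of the classes before them was not tested. By the same measure Gapdh in spermatogonia stood at 1082% and 2009% of its whole-library level and Pgam1 at 826% and 1079%.

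Shares of cells with a UMI follow depth, so they were also taken after thinning each cell to 1000 UMIs, which left out no cell. Gapdhs was then seen in 67.0% of late round spermatids in the high-fat library and 58.4% in the other library, at 99.4% and 97.0% unthinned. In Sertoli cells, which should lack the gene, the thinned shares were 29.8% and 13.0%, and the unthinned ones 44.8% and 23.7%, at median depths of 1543 and 1352 UMIs against 21464 and 14636 in late round spermatids. Pachytene spermatocytes, at 6.49% and 3.41% thinned, lay under the Sertoli share. Gapdh was seen after thinning in 29.5% and 31.9% of spermatogonia and in 1.31% and 0.485% of late round spermatids. Pgk2 was seen after thinning in 53.8% and 53.4% of late round spermatids, against 35.0% and 28.2% of Sertoli cells.

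In the somatic classes, among the general genes, Sertoli cells had Gapdh at 447 (422 to 473) and 332 (306 to 359) CPM. They had Aldoa at 330 and 291, Pgam1 at 192 and 137 and Pgk1 at 37.6 and 18.6 CPM. The high-fat library was ahead in each of these pairs of values. Ldha in Sertoli cells went the other way, at 614 CPM in the high-fat library and 766 CPM in the other library. Myoid and endothelial cells had the most Aldoa, 488 (415 to 571) and 438 (392 to 488) CPM. In the other library, though, the intervals of Leydig cells, stromal cells and elongating spermatids overlapped theirs. This class is cluster 19, whose best marker list was that of endothelial cells. Gapdh in this class was at 578 and 430 CPM. T and killer lymphocytes had Gapdh at 709 (640 to 783) and 299 (238 to 372) CPM. Interstitial stromal cells were at 204 and 189 CPM of Gapdh, and the small Leydig class, with 75 and 27 cells, at 109 and 198 CPM. Ldha differed from the other general genes: it kept to Ldhc in most somatic classes, with 8.82 to 12.1 Ldhc UMIs per Ldha UMI in the other library. In the high-fat library, however, myoid and endothelial cells had 5.57 and lymphocytes 6.87, below the 9.69 to 11.0 of the other 3 somatic classes, so Ldha stood above the shared ratio there. Lymphocytes of the other library, at 8.82 (7.75 to 10.1), were also below its whole-library ratio of 11.1.

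Ordered by level, Gapdh was highest in lymphocytes, then myoid and endothelial cells, Sertoli cells and spermatogonia in the high-fat library; in the other library the order was spermatogonia, myoid and endothelial cells, Sertoli cells and lymphocytes. Intervals overlapped between lymphocytes and myoid and endothelial cells and between Sertoli cells and spermatogonia in the high-fat library, and between spermatogonia and myoid and endothelial cells and between Sertoli cells and lymphocytes in the other library. Pgk1 was highest in lymphocytes of the high-fat library, 82.5 (60.1 to 110) CPM, with an interval that overlapped those of Leydig cells and of myoid and endothelial cells; the other somatic classes overlapped one another. In the other library the Pgk1 intervals of Leydig cells, myoid and endothelial cells and lymphocytes overlapped, at 56.7, 56.2 and 48.0 CPM. All 8 germ cell classes had lower Pgk1 levels than these in either library.

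Between the libraries, members were compared class by class where both together held at least 20 UMIs, which 79 of the 80 values over the germ cell classes did (Pgk1 in leptotene and zygotene spermatocytes had 18). Past 2-fold higher in the high-fat library were 1 of 10 members in spermatogonia, where 8.96% of all genes were, 1 of 9 in leptotene and zygotene spermatocytes (9.91% of all genes), 1 of 10 in pachytene spermatocytes (10.9%) and 2 of 10 near the meiotic divisions (13.4%). It was 2 of 10 in early round spermatids (14.9% of all genes), 0 in middle round (11.4%), 0 in late round (10.7%) and 1 in elongating spermatids (8.93%). No member was past 2-fold lower in a germ cell class, where 5.97%, 4.27%, 7.35%, 7.30%, 8.56%, 9.60%, 9.40% and 5.60% of all genes were, in stage order. These 8 of 79 values are about the share seen over all genes and are no result about the members. The medians of the members' log2 ratios lay between -0.09 and 0.30, and those of all genes between 0.00 and 0.12.

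Gapdhs accounted for 4 of the 8 values, with log2 ratios (high-fat library over other library) of 1.15 (0.93 to 1.38) in spermatogonia, 1.06 (0.66 to 1.48) in leptotene and zygotene spermatocytes, 1.01 (0.93 to 1.10) near the divisions and 1.07 (1.03 to 1.11) in early round spermatids. Each of these 4 fell inside 2-fold under at least 1 other setting. The lowest values were 0.83 in spermatogonia with doublets kept, 0.68 in leptotene and zygotene spermatocytes with cells thinned to 1000 UMIs, and, with each library clustered on its own, 0.63 near the divisions and 0.11 in early round spermatids. In pachytene spermatocytes it was 0.98, just inside 2-fold. In the classes where Gapdhs is high the ratio was smaller, 0.61 in middle round, 0.21 in late round and 0.26 in elongating spermatids, the last of which was -0.53 with each library clustered on its own. The percentages of the 10 late spermatid transcripts given above were also higher in the high-fat library in each class up to early round spermatids, and their part in the Gapdhs ratios was not tested. Gapdh was past 2-fold in pachytene spermatocytes, 1.17 (1.00 to 1.34), and near the divisions, 1.04 (0.90 to 1.20); after thinning these were 0.88 and 0.56. Relative to the median of all genes, 0.12 near the divisions and 0.08 in leptotene and zygotene spermatocytes, Gapdhs (0.89) and Gapdh (0.93) near the divisions and Gapdhs in leptotene and zygotene spermatocytes (0.98) do not pass 2-fold. Pgk1 was past it in early round spermatids, 1.45 (0.67 to 2.29), on 46 UMIs in the high-fat library and 20 in the other library, and in elongating spermatids, 1.85 (0.35 to 3.81), on 31 and 4 UMIs. The early round value of Pgk1 was -0.89 after thinning, and the elongating value stayed past 2-fold under each setting tried, at 1.02 or more. Sertoli cells had Pgk1 at 37.6 CPM in the high-fat library and 18.6 CPM in the other library. The sum of Sertoli markers in elongating spermatids, given above, was also higher in the high-fat library. The part of Sertoli transcripts in the elongating Pgk1 ratio was not tested.

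Pgam2 was lower in the high-fat library in all 13 classes, with log2 ratios of -0.42 in spermatogonia, -0.99 in leptotene and zygotene spermatocytes, -0.44 in pachytene spermatocytes and near the divisions, -0.55, -0.68 and -0.60 in early, middle and late round spermatids and -0.46 in elongating spermatids. None of these 8 passes 2-fold, although relative to the median of all genes the value of leptotene and zygotene spermatocytes, -1.07, does, and with doublets kept it was -0.43. The classes share the library and its free RNA, so they are not separate observations. The same direction held inside clusters that both libraries share: in pachytene clusters 4 and 14, Pgam2 stood at 2164 and 1797 CPM in the high-fat library and at 2996 and 2594 CPM in the other library. Pgk2 differed little, from -0.12 in pachytene spermatocytes to 0.26 in spermatogonia. Ldhc lay between -0.06 and -0.56 and Ldha between -0.58 and 0.29 over the germ cell classes. For Pgk2, Ldhc and Ldha in the deep classes these intervals are narrow because of the counts, and how far 2 libraries of the same kind would differ is not known.

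**Figure D4:**
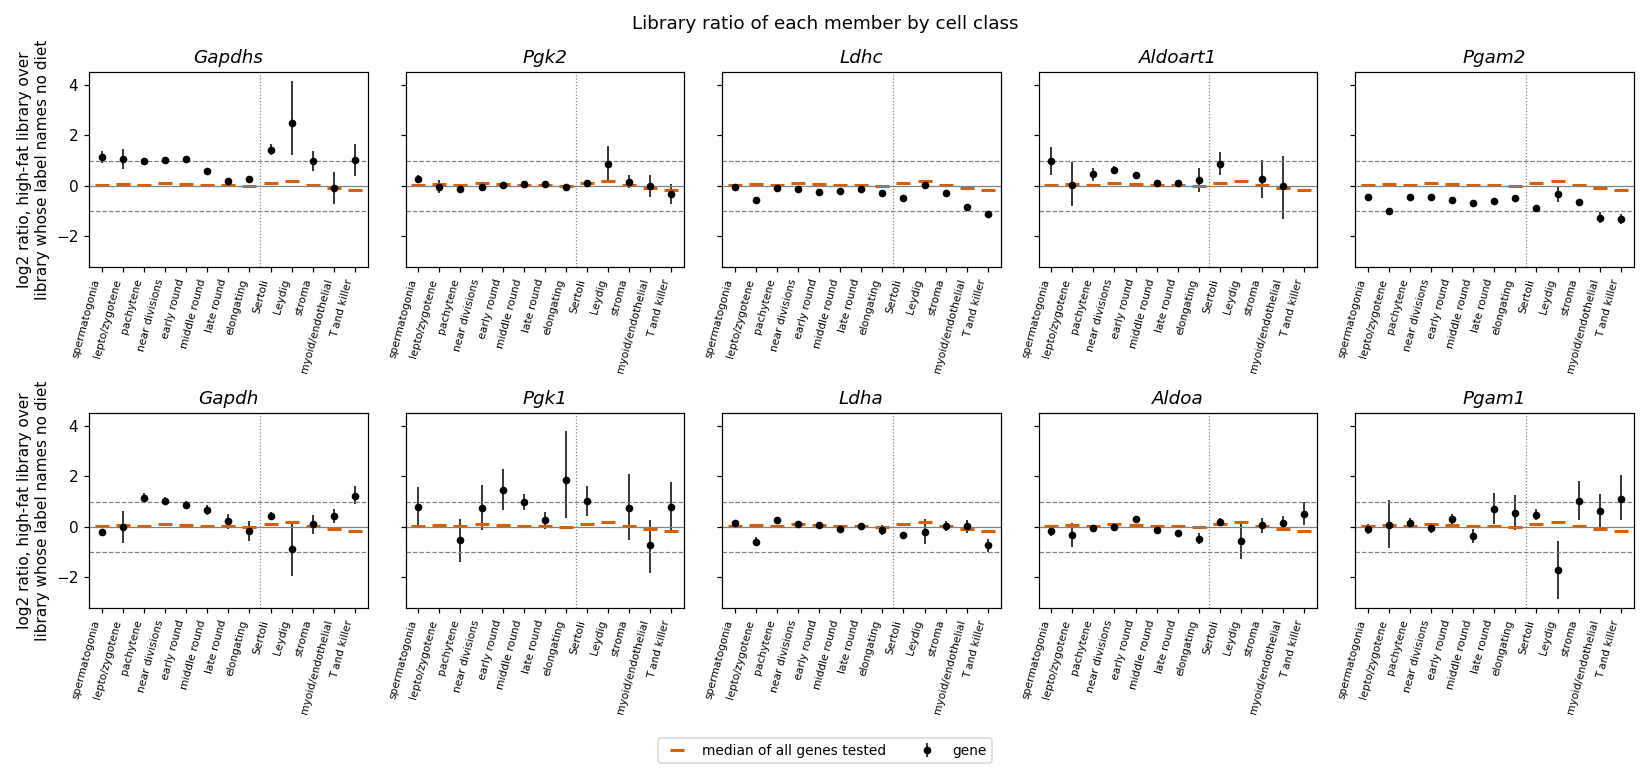
Log2 ratio of CPM, high-fat library over the other library, of each member by class, with exact 95% counting intervals; orange dashes are the median of all genes tested in the class and dashed lines mark 2-fold. Values under 20 UMIs are left out. Pgam2 lies below 0 in all 13 classes, Pgk2 stays between -0.12 and 0.26 over the germ cell classes, and Gapdhs is above 1 in 4 of them.

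Which clusters hold a class differed between the libraries, and the ratios carry that. Spermatocytes near the divisions were mainly cluster 1 in the high-fat library (2414 cells) and cluster 0 in the other library (2402 of its cells). Early round spermatids were cluster 8 in the high-fat library and clusters 10 and 11 in the other library, and middle round spermatids cluster 9 against clusters 7 and 13. Within the early and middle round clusters Gapdhs kept its direction, at less than 2-fold in each of them. In cluster 8 it was at 322 CPM in the high-fat library and 193 CPM in the 22 cells of the other library. In cluster 10 it was at 299 CPM (26 cells) and 203 CPM, and in cluster 11 at 175 CPM (38 cells) and 103 CPM. In middle round clusters 7, 9 and 13 it was at 528, 756 and 783 CPM in the high-fat library. The other library had 373, 413 and 682 CPM there. Clusters 7 and 13 held 53 cells each of the high-fat library, and cluster 9 held 81 of the other library. Near the divisions, cluster 1 held 12 cells of the other library, under the minimum of 20 for a level. Cluster 0 held 35 cells of the high-fat library, above that minimum, and its levels are not given here.

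Over the somatic classes 47 of 50 values had 20 UMIs. Past 2-fold higher in the high-fat library were Gapdhs (1.44) and Pgk1 (1.01) in Sertoli cells (14.9% of all genes), Gapdhs (2.50, on 70 and 5 UMIs) in Leydig cells (25.7%), Pgam1 (1.01) in stromal cells (8.36%), and Gapdhs (1.01), Gapdh (1.24) and Pgam1 (1.11) in lymphocytes (17.2%), as log2 ratios; none was in myoid and endothelial cells (5.67%). Past 2-fold lower were Pgam1 in Leydig cells (-1.70, 9.16% of all genes), Pgam2 in myoid and endothelial cells (-1.26, 10.5%), and Ldhc (-1.09) and Pgam2 (-1.30) in lymphocytes (19.3%); none was in Sertoli cells (4.71%) or stromal cells (4.48%). The late spermatid transcripts stood at 106% of their whole-library level in Sertoli cells of the high-fat library and at 63.5% in the other library, and at 94.2% and 31.7% in Leydig cells. The part of this in the ratios of the germ cell genes was not tested. Relative to the median of all genes, which was 0.13 in Sertoli cells, 0.19 in Leydig cells and -0.15 in lymphocytes, the ratios of Pgk1 in Sertoli cells (0.89), Ldhc in lymphocytes (-0.95) and Pgam1 in stromal cells (0.98) no longer pass 2-fold, and Gapdh in Leydig cells (-1.06) does. Of the 11 somatic values past 2-fold, Gapdhs in Sertoli cells (at least 1.18) and in Leydig cells (at least 1.32) stayed so under each setting that gave a value, and the other 9 did not. Subtracting free RNA gave no value for Sertoli cells. In Leydig cells it moved Gapdhs from 400 to 940 CPM in the high-fat library and from 70.9 to 0 CPM in the other library. The high-fat value was there scaled up from a small rest, so that setting cannot decide whether the Leydig ratio stays past 2-fold.

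The rest of the pathway was followed with a list of 32 genes of glycolysis, its regulators and pyruvate entry, all present in the files, of which 18 reached 50 CPM in a class. A first group was, among germ cell classes, highest after meiosis. Aldoart2, a further aldolase retrocopy, stood at 37.4 and 26.6 CPM in pachytene spermatocytes and at 580 and 546 CPM in middle round spermatids. Hk1, the hexokinase that starts the pathway, stood at 121 and 137 CPM in pachytene and 464 and 467 CPM in late round spermatids. Gpi1, glucose-phosphate isomerase, went with them at 14.7 and 20.9 CPM in pachytene, 138 and 158 CPM in late round and 379 and 317 CPM in elongating spermatids. Pkm, the pyruvate kinase, was at 9.35 and 5.94 CPM in pachytene spermatocytes and at 96.1 and 91.4 CPM in late round spermatids. Bpgm, bisphosphoglycerate mutase, reached 236 and 242 CPM in middle round spermatids, Tpi1, triose-phosphate isomerase, 342 CPM (early round) and 269 CPM (middle round), and Pfkfb2, which makes an activator of phosphofructokinase, 84.5 and 55.4 CPM in late round spermatids.

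Ldhal6b, Pfkp and Pfkm were highest in spermatocytes, as Ldhc and Ldha were. Ldhal6b, a lactate dehydrogenase-like testis gene, stood at 2330 and 2277 CPM in pachytene spermatocytes and at 672 and 742 CPM in elongating spermatids. Pfkp, a phosphofructokinase, was at 171 CPM near the divisions in both libraries, and Pfkm, the muscle form, at 107 and 95.4 CPM. Pdha2, the testis subunit of pyruvate dehydrogenase and a retrocopy like Pgk2, stood at 266 and 203 CPM in pachytene spermatocytes and at 281 and 244 CPM in late round spermatids; Pdhb, its partner subunit, was at 145 and 118 CPM in pachytene spermatocytes and 151 and 172 CPM in late round spermatids. Eno4, an enolase-like gene of sperm, peaked at 71.4 and 52.1 CPM in early round spermatids. Eno1 and its copy Eno1b can share reads and are uncertain; they stood at 77.5 and 44.9 CPM and at 33.3 and 65.8 CPM near the divisions, opposite in direction between the libraries. Sertoli cells had the highest levels of 3 more: Ldhb, the lactate dehydrogenase subunit of oxidative tissue, at 936 and 652 CPM, Hk2 at 114 and 67.6 CPM and Pfkl, the liver phosphofructokinase, at 59.3 and 48.4 CPM.

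Of these 32 genes, 8 to 26 had 20 UMIs in a class. In the germ cell classes in stage order these were 23, 18, 25, 26, 25, 25, 25 and 21. Past 2-fold higher in the high-fat library were 1, 2, 1, 0, 3, 2, 0 and 0. Past 2-fold lower were 1, 1, 1, 2, 2, 1, 2 and 2. Over all genes it was 8.93% to 14.9% higher and 4.27% to 9.60% lower. Per somatic class 1 to 3 were higher and 0 to 3 lower, against 5.67% to 25.7% and 4.48% to 19.3% of all genes. These small counts are no result about the list. Pfkfb2 was higher in 4 germ cell classes, with log2 ratios of 1.24 in spermatogonia, 1.40 in leptotene and zygotene spermatocytes, 1.74 in early round and 1.07 in middle round spermatids. Eno1b was lower in leptotene and zygotene spermatocytes (-1.51), early round (-1.08) and elongating spermatids (-1.19). The lactate dehydrogenase genes Ldhal6b and Ldhb were inside 2-fold in all 8 germ cell classes where they had 20 UMIs.

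By Pearson's r of log2(CPM + 1) over the 26 class values (13 classes in 2 libraries) among 9102 genes with at least 50 CPM in a class, the genes most like each member were as follows; the points share libraries, depth and free RNA, so r is a description. Gapdhs was closest to 4930503B20Rik, 2610318N02Rik and Fam71e1 (0.99 each). Aldoart1 was closest to Ace, the testis form of which is known from spermatids (0.97), Klhl10 (0.96) and 1700011L22Rik (0.96). Pgk2 was closest to Spata24 (0.96), Dnajb3 (0.95) and Lrrc51 (0.94). Ldhc had Ppp3r2, Asrgl1 and Cct6b (0.98 each), and Pgam2 had Smim24 (0.97), Odf4 (0.96) and Adam3 (0.96). Among the general genes, Gapdh was closest to Tubb5 (0.98), Cox8a (0.97) and Psma7 (0.97), and Pgam1 to Psma7 (0.97), Mdh1 (0.96) and Jtb (0.95). Ldha had Dctn2 (0.94), Ubb (0.94) and Hspa2 (0.93), the last a heat shock gene of spermatocytes. Pgk1 had Rbm3 (0.93), Acadl (0.92) and BC029722 (0.91), and Aldoa Sorbs3, St3gal6 and Timp2 (0.88, 0.86 and 0.85). Between partners r was 0.85 for Ldhc and Ldha, 0.53 for Aldoart1 and Aldoa, -0.09 for Gapdhs and Gapdh, -0.31 for Pgk2 and Pgk1 and -0.52 for Pgam2 and Pgam1, while the general genes Gapdh and Pgam1 had r of 0.93 with each other.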

How the data were processed

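Single cells of testis tissue were counted in 2 libraries, 1 per group. The authors deposited raw UMI counts per gene and barcode, without normalization; per the file headers the matrices were written by PISA 1.0, while Cell Ranger 2.1.1 is the tool in the submitters' processing notes. For the aligner, build and annotation, nothing is given in the sources used here. Barcodes under 500 UMIs or 250 genes or over 20% mitochondrial UMIs were left out (3 in the high-fat library and 2 in the other library), as were 462 and 517 doublets called by Scrublet in scanpy 1.11.5 at an expected 6%. Cells were scaled to 10000 UMIs, log transformed, centred per library and clustered together without the glycolysis genes (2000 variable genes, 50 principal components, 20 neighbours, Leiden at resolution 1, leidenalg 0.10.2), and clusters were named from marker lists. The rule that gives a name from these lists was chosen with the data in hand. Counts were summed per class and library. Intervals are exact Poisson (levels), exact conditional binomial (ratios) and Clopper-Pearson (shares) at 95%. A ratio was computed where both libraries together had 20 UMIs and called past 2-fold; the self-test on simulated counts recovered known folds and intervals. All 10 members are named; other glycolysis genes are named from 50 CPM in a class, and the 3 genes most like each member by r. Members, markers and lists were chosen with earlier results of these data known. Gene IDs matched GENCODE M21 for 35839 of 36476 genes of the high-fat library and 35963 of 36598 of the other library; it was used for chromosomes, exons and neighbours. The alternatives tried number 14. Python 3.11.15, scipy 1.17.1, scikit-learn 1.9.0 and matplotlib 3.10.9 were used.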

Additional observations from a re-analysis of the deposited data

Results flagged for a closer look

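Pgam1, the general phosphoglycerate mutase gene, differed between the libraries in opposite directions in 2 somatic classes. In T and killer lymphocytes its log2 ratio, high-fat library over the other library, was 1.11 (0.26 to 2.06), on 61 and 14 UMIs in 201 and 60 cells. In Leydig cells it was -1.70 (-2.86 to -0.57), on 13 and 17 UMIs in 75 and 27 cells. With cells thinned to 1000 UMIs these were 0.63 and -0.99, both inside 2-fold. The difference between the classes was not tested, and each rests on few cells of 1 library per group.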

How the results depend on the processing

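The main count of member values past 2-fold higher in the high-fat library over the germ cell classes, 8 of 79, was 5 without centring per library, with the glycolysis genes left in the clustering, with cells thinned to 1000 UMIs (of 68 values) and after scaling by the median ratio of all genes, 3 with doublets kept and 18 at 1.5-fold. The count past 2-fold lower, 0, was 3 with each library clustered on its own (of 69 values), 3 at 1.5-fold, and 1 at resolution 2, at a minimum of 2000 UMIs, with cells weighted equally and after median scaling. The cause of these changes was not tested. The 4 pairs whose germ cell gene gained share in early round spermatids were 4 under every setting that gave a value. Free RNA was subtracted from the somatic classes only, so that setting could not change this count. The part of free RNA in the shares of spermatogonia was not tested. Of the library ratios of single members past 2-fold, 2 turned: Pgk1 in early round spermatids, 1.45, was -0.89 after thinning, and Gapdhs in lymphocytes, 1.01, was -0.11 after subtracting free RNA. That subtraction gave no value for Sertoli cells, where the spermatid transcripts of the high-fat library stood above their whole-library level. No paired analysis was possible because each group has 1 library, and for the same reason no replicate could be left out. Depth limits the members with few UMIs, such as Pgk1: 3 UMIs, the floor used for a count of 0, are 0.0526 and 0.0613 CPM near the meiotic divisions but 17.1 and 42.5 CPM in Leydig cells.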

Other observations

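In the clusters left without a name, cluster 21 (40 cells in the high-fat library and 46 in the other library) had the highest Pgk2 level of any cluster, 2641 and 2675 CPM, against 967 and 997 CPM in elongating spermatids. Aldoart1 stood at 182 and 195 CPM there, against at most 123 and 114 CPM in a named class, with intervals (110 to 285 and 122 to 295) that overlap in the high-fat library, while Gapdhs was at 432 and 434 CPM and Ldhc at 4783 and 5031 CPM. The cluster was led by 5031439G07Rik, 1700012A03Rik, Pga5 and Tssk6, a spermatid kinase gene, and its median depth was 0.142 of the library's. It was singled out after its values were seen.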
